A study of Mus musculus with 15 samples.

Results

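Genes listed as activin, inhibin and bone morphogenetic protein (BMP) regulators of Fshb were followed in RNA-seq of whole mouse pituitary glands. They were 10 genes chosen by name: the activin subunits Inhba and Inhbb, the secreted binders Fst and Grem1, the co-receptors Tgfbr3 and Tgfbr3l, the activin receptors Acvr2a and Acvr1b, the signal transducer Smad3 and the pseudoreceptor Bambi. All 10 were found by symbol among the 55523 genes of the count table. The table held 15 libraries in 4 groups. Mice lacked the pituitary enhancer (PE) of Nr5a1, a region deleted by CRISPR/Cas9 editing, on one chromosome (PE+/-, the control of the study) or on both (PE-/-). There were 4 libraries of PE+/- males, 4 of PE-/- males, 4 of PE+/- females and 3 of PE-/- females. The controls therefore carried the deletion as well, and no wild-type gland was analysed here. The age and strain background of the mice, and whether a library held 1 gland or several, are not given in the sources used here, so that the p-values measure the spread between these libraries.

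Follicle-stimulating hormone is made in gonadotropes of the anterior pituitary, and its beta subunit, encoded by Fshb, limits its production. Activins are dimers of the subunits encoded by Inhba and Inhbb. They bind type II receptors such as ACVR2A, which then activate type I receptors such as ACVR1B, and the type I receptors phosphorylate SMAD2 and SMAD3, which act on the Fshb gene together with FOXL2. Inhibins, which share a beta subunit with activins, come largely from the gonads and compete for the type II receptors with the help of co-receptors. Betaglycan (Tgfbr3) serves inhibins A and B, and TGFBR3L, a gonadotrope protein, serves inhibin B. Follistatin (Fst) binds and neutralises activins, gremlin 1 (Grem1) binds BMPs, and BAMBI is a receptor-like protein without a kinase that dampens signalling. Nr5a1 encodes the nuclear receptor Ad4BP/SF-1, which in the pituitary is made in gonadotropes.

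The region before the start of Tgfbr3l is shown because Tgfbr3l was the member called lower in PE-/- females, and that of Grem1 because its level was high in only 1 of the 4 groups. The region of Lhb, a known target of Ad4BP/SF-1, and that of Fshb are given beside them. Each is a window of 300 bases around the gene's start in RefSeq on GRCm38.p6, printed 5′ to 3′ on the strand of the gene, with the letters that match CAAGGNCA, the site known to be bound by Ad4BP/SF-1, on either strand in capitals.
Tgfbr3l, chr8:4247964-4248263, plus strand: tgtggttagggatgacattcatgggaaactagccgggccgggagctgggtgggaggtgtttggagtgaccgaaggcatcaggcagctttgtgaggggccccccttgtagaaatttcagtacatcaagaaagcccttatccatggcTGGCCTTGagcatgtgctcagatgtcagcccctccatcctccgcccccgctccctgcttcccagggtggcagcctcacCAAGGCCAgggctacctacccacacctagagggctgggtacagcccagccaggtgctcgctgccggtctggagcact
Grem1, chr2:113758599-113758898, minus strand: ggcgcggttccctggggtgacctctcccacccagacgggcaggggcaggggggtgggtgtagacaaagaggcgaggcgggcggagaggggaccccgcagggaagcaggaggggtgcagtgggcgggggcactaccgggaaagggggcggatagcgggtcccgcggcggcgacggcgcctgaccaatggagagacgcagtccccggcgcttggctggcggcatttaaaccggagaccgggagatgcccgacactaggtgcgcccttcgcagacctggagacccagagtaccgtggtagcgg
Lhb, chr7:45420696-45420995, plus strand: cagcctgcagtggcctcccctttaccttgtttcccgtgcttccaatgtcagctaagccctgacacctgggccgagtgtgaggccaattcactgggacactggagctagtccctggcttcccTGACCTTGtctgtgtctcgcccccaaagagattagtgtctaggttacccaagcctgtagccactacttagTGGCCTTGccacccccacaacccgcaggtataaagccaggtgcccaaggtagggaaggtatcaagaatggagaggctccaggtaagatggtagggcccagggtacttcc
Fshb, chr2:107059602-107059901, minus strand: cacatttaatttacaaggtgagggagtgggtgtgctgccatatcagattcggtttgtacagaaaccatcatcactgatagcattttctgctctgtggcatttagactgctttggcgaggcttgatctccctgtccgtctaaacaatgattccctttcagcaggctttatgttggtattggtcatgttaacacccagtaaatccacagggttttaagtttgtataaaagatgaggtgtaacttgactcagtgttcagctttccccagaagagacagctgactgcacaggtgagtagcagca
Positions are counted back from the start, with -1 the last base before it. The Tgfbr3l window held 2 matches, TGGCCTTG from -105 to -98, which matches on the opposite strand, and CAAGGCCA from -27 to -20. The Lhb window also held 2, from -129 to -122 and from -59 to -52, both on the opposite strand. No match was found in the windows of Grem1 and Fshb. Among the 7 members with a window in the RefSeq table (Tgfbr3l, Grem1, Inhba, Inhbb, Acvr2a, Acvr1b and Smad3), Tgfbr3l alone had a match, while 6.71% of all 32851 windows had one. The shorter AAGGTCA, which lies within one form of CAAGGNCA, was in 4.72% of all windows and in 0 of the 7 members, and the palindrome GTCTAGAC, known to bind Smad proteins, was in 0.213% and in 0 of the 7. These are matches of letters, not measured binding. The study cites earlier work that found an Ad4BP/SF-1 site close to the start of mouse and human Tgfbr3l, and that proposes direct induction from tests in vitro. Whether that site is one of the matches printed here was not tested.

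Library totals ran from 12982794 to 30238443 estimated counts, in which about 4 counts stood for 1 fragment, and a gene with 12 counts or fewer in a library was taken as at the floor there. Levels are given as CPM, counts scaled to a common library size. The labels and the data were first compared at Nr5a1, which was at 34.8 to 80.2 CPM in PE+/- males, 0 to 0.740 CPM in PE-/- males, 33.7 to 45.4 CPM in PE+/- females and 0.618 to 0.897 CPM in PE-/- females. Of 7 gonadotrope markers (Lhb, Fshb, Gnrhr, Nr5a1, Cga, Foxl2 and Nr0b1), 4 (Lhb, Gnrhr, Nr5a1 and Nr0b1) were lower in PE-/- glands in each sex by edgeR's quasi-likelihood test at an adjusted p of 0.05, and none was at 0 in all libraries of a group. Over all genes tested the share called was 0.132% in males and 1.05% in females. In males the call of Lhb was lost without PE+/- replicate 4 or without PE-/- replicate 1, 2 or 3 (edgeR's adjusted p from 0.0552 to 0.0777), that of Nr5a1 without PE-/- replicate 1 or 2 (0.0720 and 0.0696), and that of Gnrhr without PE-/- replicate 2 (0.0532), while their log2 fold changes stayed at -4.74 or lower. The summed level of the 7 markers was 9008 to 16897 CPM in PE+/- males and 1362 to 6823 CPM in PE-/- males. In females it was 5878 to 8764 CPM in PE+/- and 2273 to 6954 CPM in PE-/- glands. Most of it was Cga, so the sum does not show how the other markers changed. Relative to PE+/-, mean Cga came to 61.6% (males) and 77.5% (females), and mean Foxl2 to 69.0% and 156%. These shares were 3.06% and 7.88% for Lhb, 3.70% and 7.17% for Gnrhr, 2.68% and 9.86% for Fshb, and 0.691% and 1.87% for Nr5a1. Mean Nr0b1 fell from 20.8 to 0.179 CPM in males and from 17.6 to 0.341 CPM in females. In whole glands, fewer gonadotropes and less RNA in each of them cannot be told apart.

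The comparison of PE-/- with PE+/- glands asked how the members changed with the loss of the enhancer. Tgfbr3l was low in PE-/- glands of both sexes, at 2.44% of the control mean in females and 3.02% in males, and Grem1 was low in PE-/- males, at 5.57% of the control mean. The other tested members lay between 59.3% and 112% of control in males and between 83.1% and 203% in females. In females 1 of 9 tested members, Tgfbr3l, had an adjusted p under 0.05 by the quasi-likelihood test of edgeR, against 1.05% of 18085 genes tested (0.697% when only lower genes are counted). In males 0 of 9 members were past it, against 0.132% of 17392 genes, and 2 (Tgfbr3l and Grem1) had an unadjusted p under 0.05, against 6.14% of all genes. The same 2 were the members whose male groups did not overlap, as was so for 4.56% of all genes. DESeq2 called both in males, where it called 1.18% of the genes tested, and so did a fit on all 15 libraries, which called 0.192%. The study's own edgeR analysis, at an FDR under 0.05 and with a cutoff on the fold change, listed both as lower in PE-/- males. Its methods do not state which of edgeR's tests was used. In females DESeq2 called Tgfbr3l among the members and 7.91% of all genes, and 16.1% of all genes had an unadjusted p under 0.05, Tgfbr3l and Tgfbr3 among the members. The median log2 fold change of the 9 members was -0.39 in males, with 2 above 0 and 7 below, and 0.23 in females, with 7 above and 2 below, beside medians near 0 (0.0027 and 0.0018) over all genes tested. Fst had too few counts for a test in any comparison.

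**Figure D1:**
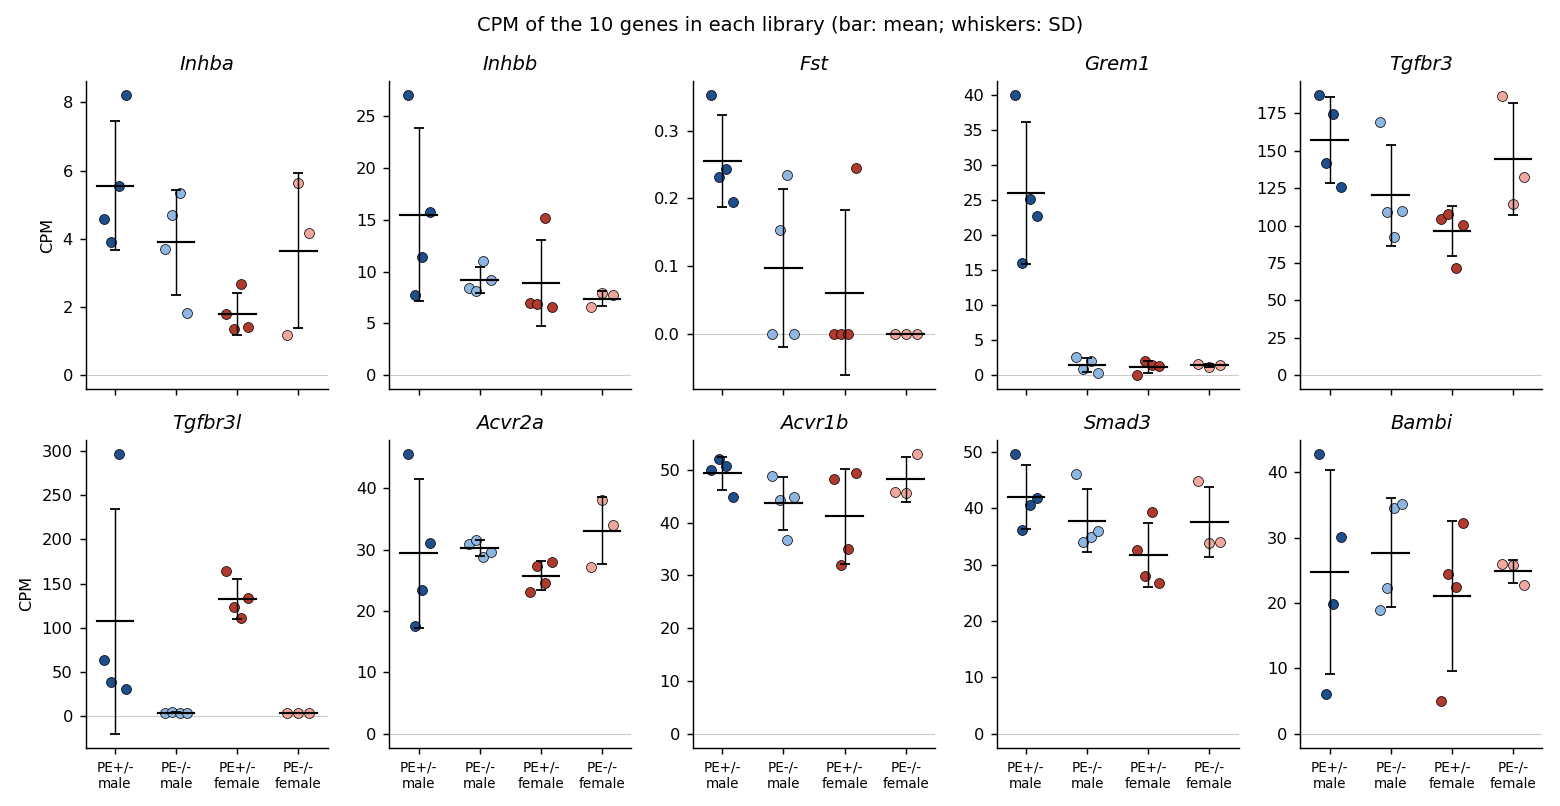
CPM of the 10 members in each library, with 1 panel per gene and a linear axis of its own. Points are libraries, the bar is the group mean and the whiskers are the SD. Tgfbr3l lies near 3 CPM in all 7 PE-/- libraries, Grem1 is above 16 CPM only in the 4 PE+/- males, and Fst stays under 0.4 CPM throughout.

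Tgfbr3l (MSTRG.23475 in the files, chromosome 8, 4248214 to 4251423, plus strand) was at 164, 123, 111 and 133 CPM in PE+/- females and at 3.34, 3.16 and 3.24 CPM in PE-/- females. The libraries within each female group were close to each other and the groups were far apart. It fell by 5.36 on the log2 scale (SE 0.21, edgeR's adjusted p = 0.000253), from 133 ± 22.8 CPM (SD, n = 4) to 3.24 ± 0.0901 CPM (n = 3). In PE+/- males Tgfbr3l was at 62.9, 38.0, 298 and 30.2 CPM in replicates 1 to 4, and in PE-/- males at 2.63, 3.91, 3.09 and 3.30 CPM. The groups did not overlap in males either, but the control libraries were spread widely, with replicate 3 far above the rest. The log2 fold change was -5.05 (SE 0.82, edgeR's adjusted p = 0.0952), from 107 ± 128 CPM to 3.23 ± 0.529 CPM (SD, n = 4 each). Without PE+/- male replicate 3 it was -3.75 and passed the threshold (edgeR's adjusted p = 0.00856). Among the PE+/- males the same library was the highest for 3 of the 7 gonadotrope markers (Fshb, Gnrhr and Foxl2), lay between the others for Lhb, Nr5a1 and Nr0b1, and was the lowest for Cga, at 5014 CPM against 7143 to 12932 CPM. Its summed level of the markers, 9008 CPM, was the lowest of the 4, but most of that sum was Cga. The sum therefore does not rank the other markers, and the part of these markers in its Tgfbr3l level was not tested. The residue in PE-/- glands was above the floor, with 52 to 102 counts in every library.

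A gene annotated as spanning Tgfbr3l bears on the male values. Gm49320 runs from 4238865 to 4251423 on the same strand, shares 1530 exonic bases with Tgfbr3l and 1349 with the gene before it, Map2k7, and was held with both under 1 locus in the files. In 14 of 15 libraries it had 0 or 1 count. In PE+/- male replicate 4 it had 2019 counts, or 131 CPM, while Tgfbr3l had its lowest level of any control library there, 30.2 CPM. Map2k7 was at 103 CPM in that library and between 68.7 and 154 CPM in the other PE+/- males. With Gm49320 added to Tgfbr3l, the PE+/- males came to 62.9, 38.0, 298 and 161 CPM, and the mean rose to 140 ± 118 CPM (SD, n = 4). The log2 fold change in males was then -5.43 (SE 0.68, edgeR's adjusted p = 0.0270), past the threshold, and that in females was -5.36 as before. The division of reads between the overlapping genes is therefore uncertain in this library, and the male call turned on it. Map2k7 itself had a log2 fold change of -0.092 in males (SE 0.23, edgeR's adjusted p = 0.988) and -0.12 in females (SE 0.23, edgeR's adjusted p = 0.870).

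**Figure D2:**
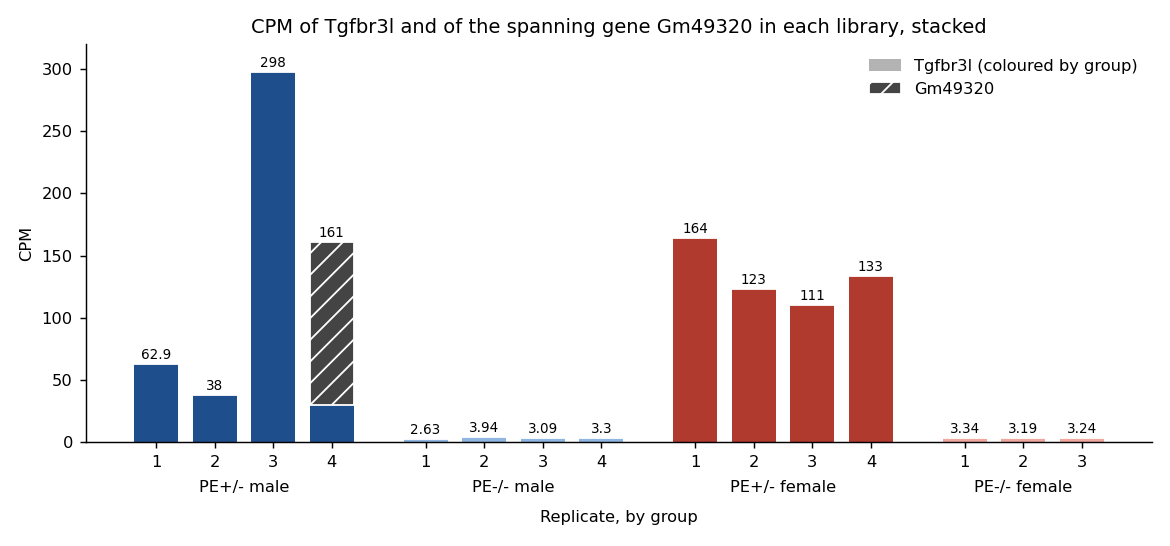
Stacked bars of Tgfbr3l (coloured by group) and Gm49320 (hatched) in CPM for each library, with the sum above each bar. Gm49320 is visible in PE+/- male replicate 4 only, where it lifts the sum from 30.2 to 161 CPM, and PE+/- male replicate 3 is the highest of all, at 298 CPM.

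Tgfbr3 (MSTRG.18924, chromosome 5, 107106570 to 107289629, minus strand), the gene for betaglycan, was at 187, 142, 175 and 126 CPM in the PE+/- males and 169, 109, 92.1 and 110 CPM in PE-/- males, and the groups overlapped. In PE+/- females it was at 104, 108, 71.9 and 101 CPM and in PE-/- females at 186, 115 and 132 CPM. Every PE-/- female library was above every PE+/- female library, a separation shown by 18.6% of the genes tested in females. The log2 fold change was 0.58 in females (SE 0.22, edgeR's adjusted p = 0.251) and -0.39 in males (SE 0.21, edgeR's adjusted p = 0.904), and neither passed. The difference between these values was 0.97 (SE 0.32, unadjusted p = 0.0091 and adjusted p = 0.299 by edgeR's interaction test). The row for Gm43422, an unclassified transcript that shares 297 exonic bases with Tgfbr3 on the same strand, was not added. By mean level per kilobase of exon, Tgfbr3 and Tgfbr3l were the 2 most abundant members in PE+/- glands. Tgfbr3l had means of 36.6 (males) and 45.3 (females) CPM per kb and Tgfbr3 24.0 and 14.7. The male mean of Tgfbr3l was raised by PE+/- male replicate 3, at 298 CPM, against 30.2 to 62.9 CPM in the others. Its rank above Tgfbr3 in males is therefore uncertain. In PE-/- glands Tgfbr3l was down to 1.10 and 1.11 CPM per kb, below Inhbb at 2.16 and 1.74, while Tgfbr3 was at 18.4 and 22.1.

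Grem1 (MSTRG.13899, chromosome 2, 113746164 to 113758646, minus strand) was at 40.03, 16.05, 25.1 and 22.8 CPM in PE+/- males. It was at 2.58, 0.957, 1.97 and 0.285 CPM in PE-/- males, at 0, 2.05, 1.47 and 1.34 CPM in PE+/- females and at 1.67, 1.24 and 1.40 CPM in PE-/- females. All 4 PE+/- males were thus above the other 11 libraries, and the 3 other groups overlapped each other. The log2 fold change in males was -4.16 (SE 0.60, edgeR's adjusted p = 0.0605), just short of the threshold, and in females 0.21 (SE 0.91, edgeR's adjusted p = 0.950). In males it passed with DESeq2 (adjusted p = 4.36e-11), in the fit on all 15 libraries (edgeR's adjusted p = 0.0399), with counts divided by 4 (edgeR's adjusted p = 0.0215), and without PE-/- male replicate 4 (-3.83, edgeR's adjusted p = 0.0351), which held 5 counts and was at the floor. The PE+/- female replicate 1, with 0 counts, was also at the floor. The study listed Grem1 as lower in PE-/- male pituitary. It also listed Grem1 as higher in sorted male gonadotropes than in whole pituitary, from libraries not analysed here. Pericytes and mesenchymal cells are known sources of BMP binders in many tissues. The summed level of their 6 markers (Pdgfrb, Rgs5, Col1a1, Col1a2, Dcn and Lum) was 674 to 790 CPM in the PE+/- males and 415 to 573 CPM in PE-/- males. These ranges did not overlap, and none of the 6 was called, against 0.132% of all genes tested in males. In females the summed level was 720 to 1208 CPM in PE+/- and 453 to 552 CPM in PE-/- glands. There 1 of the 6 was called lower, against 1.05% of all genes tested. The part of these markers in the Grem1 values was not tested.

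The activin subunits did not pass the threshold in either sex. Inhba (MSTRG.6184, chromosome 13, 16011851 to 16031621) was at 4.58, 3.90, 5.55 and 8.21 CPM in the PE+/- males and 3.69, 4.71, 5.34 and 1.82 CPM in PE-/- males. It was at 1.80, 1.34, 2.67 and 1.40 CPM in PE+/- females and 1.17, 5.63 and 4.16 CPM in PE-/- females. The groups overlapped in both sexes, since PE-/- female replicate 1 lay below all controls and the other PE-/- females above them. The log2 fold changes were -0.51 in males (SE 0.37, edgeR's adjusted p = 0.970) and 1.02 in females (SE 0.53, edgeR's adjusted p = 0.402). Inhbb (MSTRG.1017, chromosome 1, 119415465 to 119422248), the subunit of activin B, was at 27.1, 7.79, 11.4 and 15.8 CPM in the PE+/- males and 8.16 to 11.0 CPM in PE-/- males. In females it was at 6.96, 6.91, 15.2 and 6.59 CPM in PE+/- and 6.55 to 7.95 CPM in PE-/- glands. One control library stood high in each sex, replicate 1 in males and replicate 3 in females. The log2 fold changes were -0.75 (SE 0.36, edgeR's adjusted p = 0.837) and -0.27 (SE 0.34, edgeR's adjusted p = 0.774). Inhbb was the more abundant subunit per kilobase in every group, with 3.64, 2.16, 2.09 and 1.74 CPM per kb in PE+/- males, PE-/- males, PE+/- females and PE-/- females, against 0.870, 0.609, 0.282 and 0.572 for Inhba.

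Follistatin was not detected above the floor in any library. Fst (chromosome 13, 114452290 to 114458951, minus strand) had 5, 5, 4 and 3 counts in PE+/- males, 0, 4, 5 and 0 in PE-/- males, 0, 0, 0 and 4 in PE+/- females and 0 in each PE-/- female. These are at most about 1 fragment a library, so that no difference between groups was detectable at this depth. An antisense gene, Gm47040, shares 115 of its exonic bases, and the library kit does not mark strand.

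The activin receptors and Smad3 passed the threshold in neither sex, and their group means lay within a narrow range. Acvr2a (MSTRG.13409, chromosome 2) had means of 29.4 ± 12.2, 30.2 ± 1.26 and 25.8 ± 2.33 CPM in PE+/- males, PE-/- males and PE+/- females (SD, n = 4 each) and 33.1 ± 5.46 CPM in PE-/- females (n = 3). PE+/- male replicates 1 and 2, at 45.7 and 17.5 CPM, marked the whole range of the 8 male libraries. Its log2 fold changes were 0.038 in males (SE 0.27, edgeR's adjusted p = 0.996) and 0.35 in females (SE 0.16, edgeR's adjusted p = 0.344), and 446 of its exonic bases are shared with Orc4 on the opposite strand. Acvr1b (MSTRG.9191, chromosome 15) ranged from 44.8 to 52.0 CPM in PE+/- males, 36.8 to 48.8 CPM in PE-/- males, 32.0 to 49.4 CPM in PE+/- females and 45.7 to 53.1 CPM in PE-/- females. Smad3 (MSTRG.25608, chromosome 9) ranged from 36.1 to 49.7, 34.0 to 46.0, 26.8 to 39.3 and 33.9 to 44.8 CPM in the same order. The log2 fold changes were -0.18 and 0.22 for Acvr1b (SE 0.13 and 0.20) and -0.16 and 0.24 for Smad3 (SE 0.15 and 0.19) in males and females, with edgeR's adjusted p between 0.617 and 0.972. The direction differed by sex in both genes, but the interaction did not pass (0.40 for each, edgeR's adjusted p = 0.595 and 0.631).

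Bambi (MSTRG.11329, chromosome 18), the pseudoreceptor, varied widely within 3 of the groups. It was at 42.8, 6.08, 19.8 and 30.1 CPM in the PE+/- males, at 18.9, 22.2, 34.6 and 35.1 CPM in the PE-/- males, at 5.08, 24.4, 22.5 and 32.3 CPM in PE+/- females and 25.9, 25.8 and 22.7 CPM in PE-/- females. The low libraries were both controls, PE+/- male replicate 2 and PE+/- female replicate 1, and the groups overlapped in each sex. The log2 fold changes were 0.16 in males (SE 0.51, edgeR's adjusted p = 0.988) and 0.23 in females (SE 0.51, edgeR's adjusted p = 0.892).

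Fshb, the gene that the list of members was drawn up around, was at 3129, 2201, 3260 and 2230 CPM in the PE+/- males. It was at 80.8, 72.1, 128 and 9.11 CPM in PE-/- males. It was at 359, 331, 163 and 1754 CPM in PE+/- females and 40.3, 81.8 and 70.7 CPM in PE-/- females. The genotypes did not overlap in either sex, and PE+/- female replicate 4 was far above the other PE+/- females. That library had 133 CPM of Tgfbr3l and 1.34 CPM of Grem1, both within the range of the other PE+/- females. The log2 fold change was -5.22 in males (SE 0.72, edgeR's adjusted p = 0.0506) and -3.34 in females (SE 0.88, edgeR's adjusted p = 0.125). Without PE+/- female replicate 4 the female value was -2.17 (SE 0.40, edgeR's adjusted p = 0.0926). Both passed with DESeq2, and the male value lay close to the threshold. The lowest Fshb library, PE-/- male replicate 4, also had the least Grem1 of the PE-/- males (0.285 CPM) and the least Lhb (3.13 CPM). Among the PE-/- males it was likewise lowest for Cga (1346 CPM), Gnrhr (1.88 CPM) and Foxl2 (1.93 CPM). Its Nr0b1 was at 0 CPM, as in replicate 1, and its Nr5a1 was the highest (0.740 CPM). Its Tgfbr3l, at 3.30 CPM, was not the lowest.

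**Figure D3:**
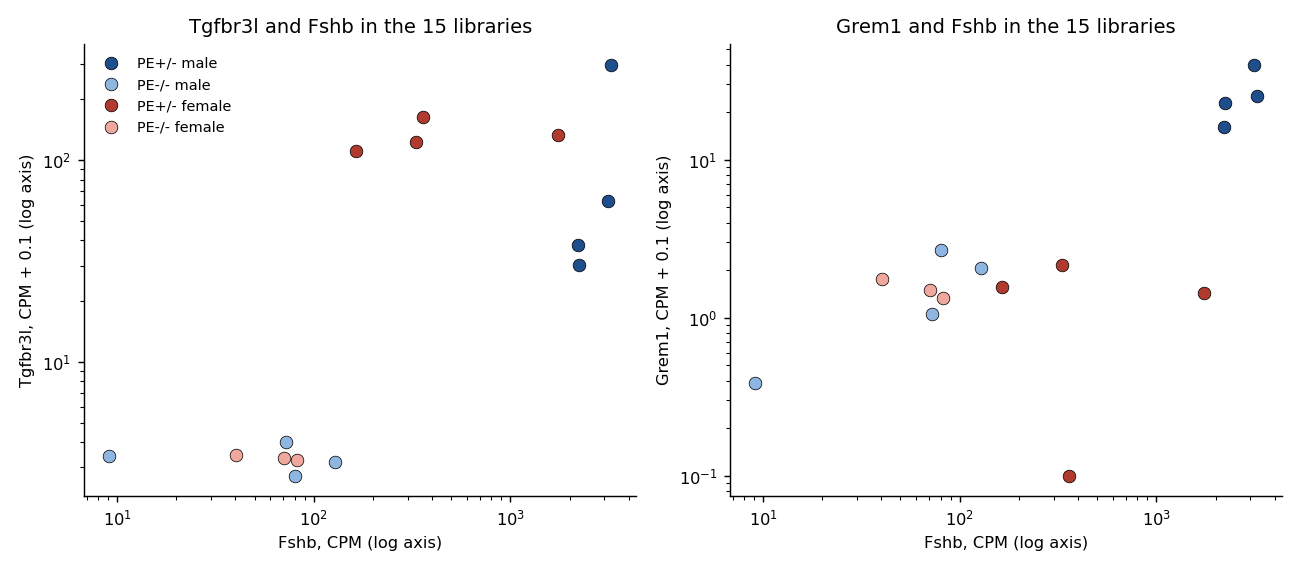
Tgfbr3l (left) and Grem1 (right) against Fshb in the 15 libraries, both axes logarithmic and in CPM, with 0.1 CPM added to the member. PE+/- females have high Tgfbr3l, 111 to 164 CPM, at Fshb levels from 163 to 1754 CPM, and low Grem1, at most 2.05 CPM, over the same Fshb range.

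Females were compared with males within each genotype. These comparisons share their libraries with the comparisons of genotype. In PE+/- glands 0 of 9 members were past an adjusted p of 0.05, against 0.67% of 17163 genes, and 4 had an unadjusted p under 0.05, against 13.5%. In females Grem1 was at 4.68% of the male mean (log2 fold change -4.37, SE 0.76, edgeR's adjusted p = 0.0503), Inhba at 32.4% (-1.62, SE 0.34, edgeR's adjusted p = 0.0875) and Tgfbr3 at 61.2% (-0.70, SE 0.19, edgeR's adjusted p = 0.153), values that did not pass. For these 3 members the PE+/- males and PE+/- females did not overlap, which was so for 9.75% of the genes tested. All 3 passed with DESeq2, where 5.24% of the genes did, and Grem1 also in a fit on all 15 libraries, where 2.18% did (edgeR's adjusted p = 0.0100). Smad3 was at 75.3% (-0.41, SE 0.17, unadjusted p = 0.0464 and adjusted p = 0.360 by edgeR), and the PE+/- male and female libraries overlapped. Tgfbr3l had a log2 fold change of 0.32 (SE 0.69, edgeR's adjusted p = 0.902), which was -0.066 with Gm49320 added and 1.60 without PE+/- male replicate 3.

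In PE-/- glands the sexes lay close together. Of the 9 members, 0 were past the threshold by edgeR's quasi-likelihood test, against 0.0494% of 18217 genes, 0 by DESeq2, against 0.225%, and 0 at an unadjusted p under 0.05, against 3.37%. The log2 fold changes ran from -0.31 to 0.27. Tgfbr3l was at 3.23 ± 0.529 CPM in males and 3.24 ± 0.0901 CPM in females (log2 fold change 0.0046, SE 0.21, edgeR's adjusted p = 0.998), and Grem1 at 1.45 ± 1.02 and 1.44 ± 0.217 CPM (SD, n = 4 and 3; -0.017, SE 0.64, edgeR's adjusted p = 0.998). Inhbb was the member whose libraries did not overlap, at 8.16 to 11.0 CPM in males and 6.55 to 7.95 CPM in females, a separation shown by 5.24% of the genes tested (-0.31, SE 0.17, edgeR's adjusted p = 0.997).

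The interaction asked whether the effect of genotype differed between the sexes. For 0 of 9 members was it past the threshold, against 0.161% of 19286 genes, and 3 had an unadjusted p under 0.05, against 10.1%. These were Grem1 (4.34, SE 1.01, edgeR's adjusted p = 0.118), Inhba (1.54, SE 0.65, edgeR's adjusted p = 0.443) and Tgfbr3. Grem1 passed with DESeq2 (4.38, adjusted p = 0.00224), which called 2.03% of the genes, and without PE+/- female replicate 1 (3.98, edgeR's adjusted p = 0.0464). For Tgfbr3l the interaction was -0.31 (SE 0.82, edgeR's adjusted p = 0.958).

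**Figure D4:**
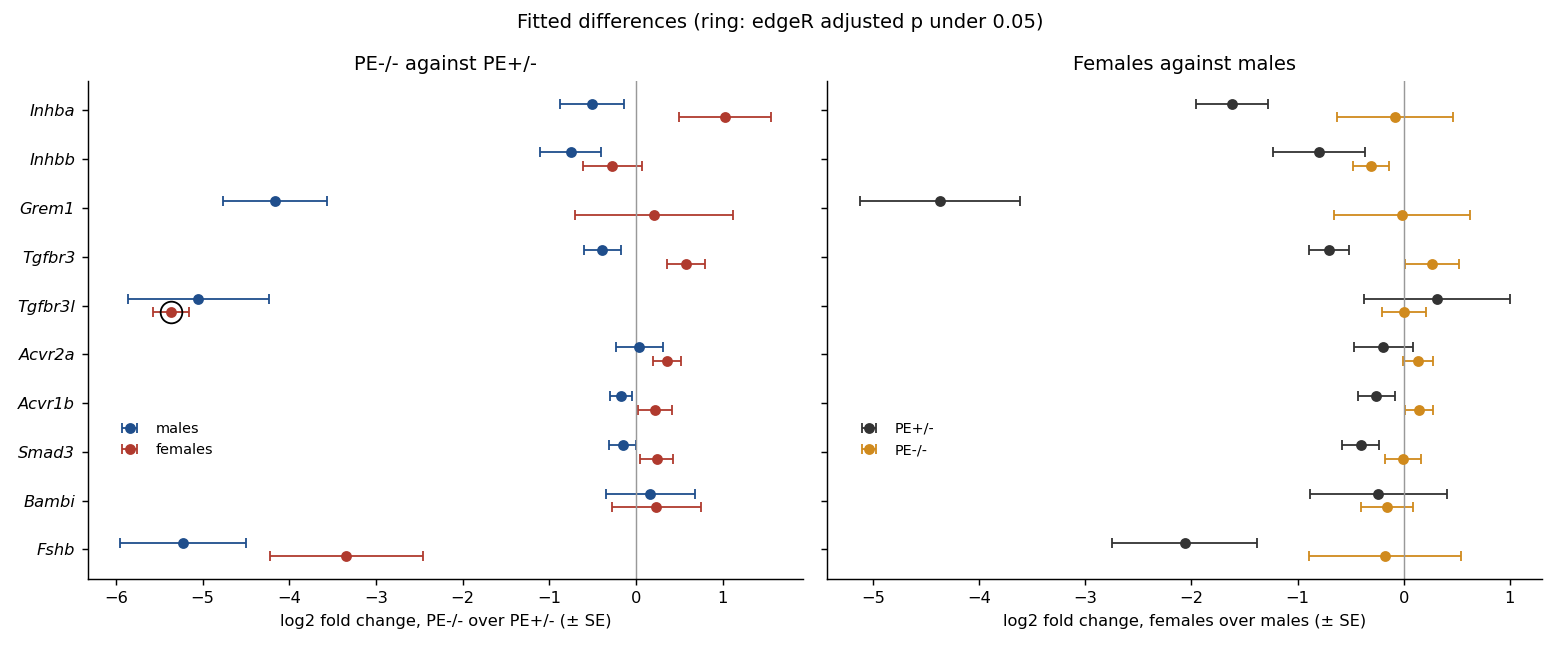
Fitted log2 fold changes ± SE of the 9 tested members and Fshb: PE-/- over PE+/- in males and females (left), and females over males in each genotype (right). A ring marks the value past an adjusted p of 0.05, Tgfbr3l in females at -5.36. Grem1 lies at -4.16 for genotype in males and at -4.37 for sex in PE+/- glands, and near 0 in the other 2 comparisons.

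The wider pathway was read from a list of 76 genes in 8 roles, the members among them. In males 64 were tested and 0 were past the threshold. In females 66 were tested and 3 were, Tgfbr3l lower and Bmp3 and Bmp15 higher, against the 1.05% of all genes given above (0.348% when only higher genes are counted). The median log2 fold change of the list was 0.029 in males, with 35 genes above 0 and 29 below, and 0.24 in females, with 45 above and 21 below. Prl, the lactotrope hormone, was called lower in PE-/- females, where the summed level of 2 lactotrope markers (Prl and Drd2) was 4492 to 5634 CPM against 21988 to 35140 CPM in PE+/- females, and its part in the list's values was not tested. With genes at the floor in all libraries of 1 group set at their bound, the medians were 0.023 and 0.24. By role, the median of the 13 ligands tested was 0.34 in males and 0.89 in females, that of the 4 type II receptors 0.042 and 0.29, of the 7 type I receptors 0.054 and 0.22, and of the 6 Smad genes -0.0070 and 0.093. The 10 inhibitors and co-factors of Smad proteins had medians of -0.077 and 0.38, and the 13 ligand binders and antagonists of -0.017 and 0.21. Co-receptors and pseudoreceptors had medians of -0.26 and 0.047 (5 and 6 tested), and target genes, Fshb among them, of -0.066 and -0.097 (6 and 7 tested).

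Bmp3, which encodes a BMP that opposes other BMPs in bone, was at 22.4, 27.1, 17.1 and 23.7 CPM in PE+/- females and 85.5, 48.2 and 64.6 CPM in PE-/- females. The groups were apart, and the log2 fold change was 1.54 (SE 0.24, edgeR's adjusted p = 0.0384). The call was lost without any 1 of the 7 female libraries (1.32 to 1.72, adjusted p from 0.0614 to 0.146). In males it was 0.74 (SE 0.24, edgeR's adjusted p = 0.591). Bmp15, known as an oocyte factor, had 0 counts in all 4 PE+/- females and 41, 94 and 56 counts (2.53, 2.91 and 2.45 CPM) in PE-/- females, at least 3.72-fold higher when the controls are set at 12 counts a library (edgeR's adjusted p = 0.0309). That call was lost without any 1 of the 3 PE-/- females or without PE+/- female replicate 2 (edgeR's adjusted p from 0.0682 to 0.172), and in the fit on all 15 libraries (edgeR's adjusted p = 0.0538). In males Bmp15 was at 0.916, 0, 0 and 0.711 CPM in PE+/- and 2.58, 2.53, 2.62 and 0 CPM in PE-/- glands, and did not pass (edgeR's adjusted p = 0.934). The next genes by p in females were Bmp7 (1.08, SE 0.23, edgeR's adjusted p = 0.0819), a BMP ligand, and Tgfbr2 (0.61, SE 0.14, edgeR's adjusted p = 0.0985), the type II receptor for TGF-beta. Both passed with DESeq2 (adjusted p = 0.00210 and 0.00564).

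In males the list genes with the smallest p after Fshb, Grem1 and Tgfbr3l were Id2, a common target of BMP signalling, and Acvr1c, a type I receptor for activin B. Id2 was at 32.6 to 40.0 CPM in PE+/- and 47.5 to 58.3 CPM in PE-/- males (0.52, SE 0.13, edgeR's adjusted p = 0.382). Acvr1c was at 10.9 to 23.1 CPM in PE+/- and 22.3 to 33.3 CPM in PE-/- males (0.75, SE 0.24, edgeR's adjusted p = 0.584), and 168 of its exonic bases are shared with an antisense gene. In females both were below 0, at -0.21 and -0.36, and did not pass. Other partners of the members did not pass in either sex: Inha, the inhibin alpha subunit, had log2 fold changes of 0.41 and -0.38 in males and females, Acvr2b of 0.046 and 0.22, Smad2 of -0.049 and -0.063, Smad4 of 0.14 and 0.13, and Foxl2 of -0.54 and 0.63. Their adjusted p by edgeR ran from 0.377 to 0.996. Inha, Acvr2b, Foxl2, Smad2 and Smad4 are named as partners of the members, outside the rule for named genes.

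**Figure D5:**
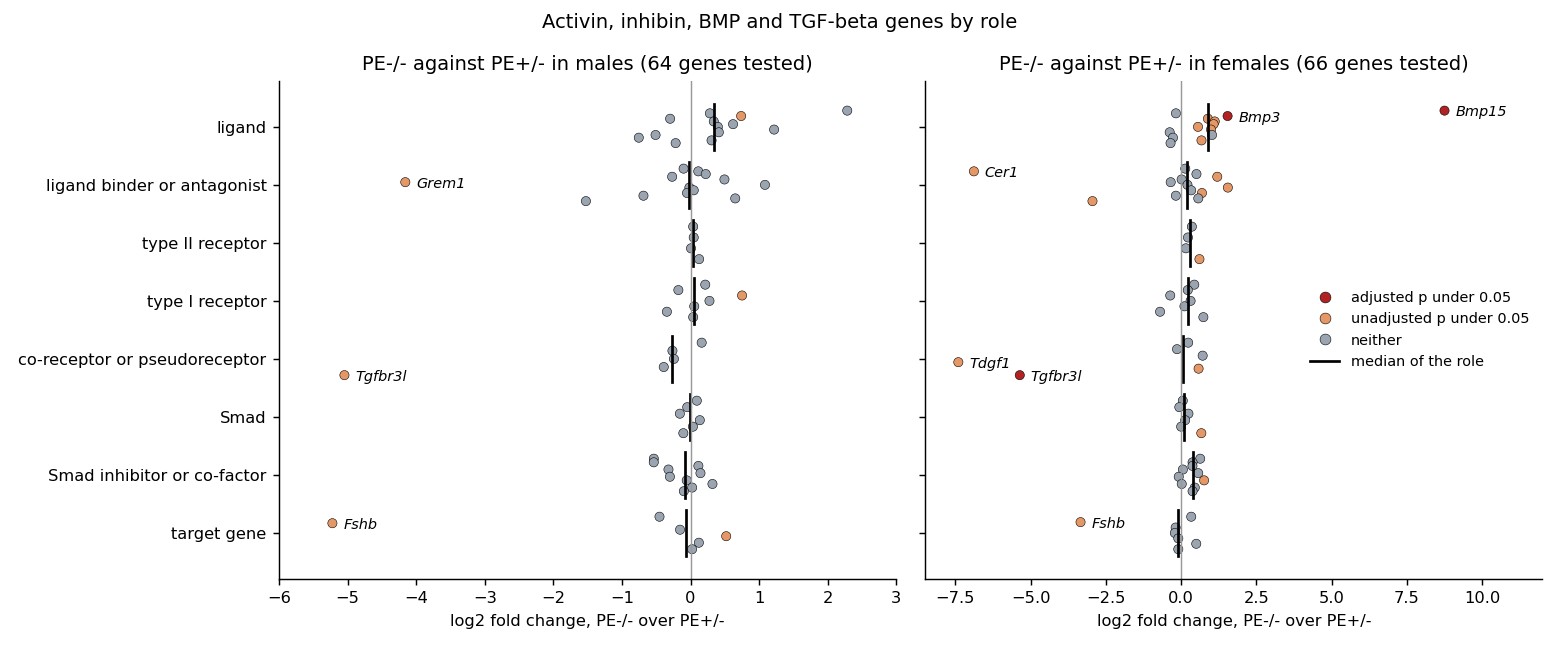
Log2 fold changes of PE-/- over PE+/- for the tested genes of the pathway list, by role, in males (left) and females (right). Each point is a gene, coloured by its edgeR p, and the black line is the median of the role. In males Fshb, Tgfbr3l and Grem1 lie apart from the other genes, and in females Bmp15, Tdgf1 and Cer1, at the floor in 1 of the groups, have fitted values that are no measure of size.

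Tdgf1 and Cer1, picked from the plot after their values were seen, encode a nodal co-receptor and a secreted antagonist. In females Tdgf1 had 4, 15, 48 and 9 counts in PE+/- and 0 in each PE-/- library, and Cer1 had 0, 20, 20 and 15 in PE+/- and 0 in each PE-/- library. Neither passed by edgeR (adjusted p = 0.108 and 0.173), both passed with DESeq2 (adjusted p = 0.000637 and 0.0169), and Cer1 had 0 counts in all 8 males.

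The genes most like Tgfbr3l and Grem1 over the 15 libraries were found by Pearson's correlation of log2(CPM + 0.5) across 16044 genes with a mean of at least 20 counts. The libraries share their groups and their depths, so r describes these libraries. For Tgfbr3l they were Slurp2 (r = 0.956), which encodes a secreted Ly6-family protein, Nr5a1 (0.939), Nr0b1 (0.933), the gene for the nuclear receptor DAX1, Gnrhr (0.927), the receptor for gonadotropin-releasing hormone, and Akr1c14 (0.926), a hydroxysteroid dehydrogenase. All 5 had means of at most 6.87 CPM in both PE-/- groups, and each had higher means in both PE+/- groups. For Grem1 they were Ramp1 (r = 0.931), a subunit of receptors for calcitonin gene-related peptide, the orphan receptor gene Gpr101 (0.930), Serpina3c (0.903), Drd4 (0.891), a dopamine receptor gene, and Unc13c (0.889). All 5 had their highest mean in PE+/- males, as Grem1 did. Ramp1 was at 46.4 CPM there, against 8.75, 8.02 and 10.2 CPM in PE-/- males, PE+/- females and PE-/- females, and Gpr101 at 13.8 CPM, against at most 0.0516 CPM in the other groups.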

How the data were processed

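The 15 libraries came from whole pituitary glands and were made with a low-input kit that does not mark strand. Per the labels and the study's methods, the authors used cutadapt for trimming, STAR for mapping to mm10 and featureCounts for counting. The deposited table held estimated counts for each gene as whole numbers, not normalized. The row names have the form that StringTie gives, and in 34514 single-transcript rows the value 5 occurred 1.41 times as often as the mean of 4 and 6, as in counts derived from coverage. The sources used here do not describe that step. The annotation release is not given in the sources used here, and coordinates are those of GENCODE M21. Samples were grouped by genotype and sex, and 0 columns were unmatched. Replicates differed by more than counting noise (chi-square per degree of freedom 17.9 to 57.8 in 21 pairs).

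Tests used R 4.3.3 and edgeR 4.0.16: filterByExpr (minimum count 10, minimum total 15), TMM, the two-sided quasi-likelihood F test on the groups compared, and Benjamini-Hochberg adjustment over all genes tested, with a threshold of 0.05. The SE of a log2 fold change is its absolute value divided by the square root of the F statistic. It was thus derived from the test, which gives no SE of its own. CPM used the TMM library sizes of 1 fit over all libraries. The floor of 12 counts (3 fragments of 4 counts) covers counting error only. The scripts were tested on simulated data. Alternatives were DESeq2 1.42.0, its size factors, library totals, no filter, a filter of 1 CPM, 1 fit on all libraries, a block for the replicate number, counts divided by 4, Gm49320 added to Tgfbr3l, and leaving out each library.

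The members, lists and tests were chosen with earlier results of these data known. The rule named the members, Fshb, Nr5a1, Lhb, Gnrhr, Gm49320, pathway genes past the threshold or among the 5 smallest p of a genotype comparison, and the 5 genes most like Tgfbr3l and Grem1. Promoter windows were taken from RefSeq. Sequences of Tgfbr3, Fst and Bambi were not analysed here.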

Additional observations from a re-analysis of the deposited data

Results flagged for a closer look

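Of 27 tests of a gene in a group of 4 libraries for a library far from the others (Dixon's test, which flags about 1 in 20 groups by chance), 3 found one. Tgfbr3l was at 298 CPM in PE+/- male replicate 3, against 30.2 to 62.9 CPM in the other PE+/- males. Inhbb was at 15.2 CPM in PE+/- female replicate 3, against 6.59 to 6.96 CPM. Smad3 was at 46.0 CPM in PE-/- male replicate 1, against 34.0 to 36.0 CPM.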

How the results depend on the processing

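Males had 0 members past the threshold by edgeR, 2 with DESeq2 (Tgfbr3l and Grem1), 2 in 1 fit on all 15 libraries (the same genes), 1 with counts divided by 4 (Grem1), 1 with Gm49320 added (Tgfbr3l), and 0 to 1 when single libraries were left out. Females against males in PE+/- had 0, 3 with DESeq2, 1 each with the filter of 1 CPM, the fit on all 15 libraries and counts divided by 4 (Grem1 each time), and 0 to 1 without single libraries. The interaction had 0, 1 with DESeq2 and 0 to 1 without single libraries. Tgfbr3l in females was called in every alternative but the block.

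The sources used here do not say whether libraries of the same replicate number belong together. The r of deviations from group means was -0.081 to 0.13 in 21 same-number pairs and -0.13 to 0.17 in 63 others. It is taken over many genes at once and cannot decide whether the numbers pair libraries. Library totals followed the number in part: replicate 2 had the highest total of each group, and replicate 3 the next highest. With the replicate block, females had 0 members past the threshold (Tgfbr3l -5.34, edgeR's adjusted p = 0.0666), and the log2 fold change of Fshb in females was -2.13. All genes past it came to 0 in males, 1 in females, 0 in both comparisons of the sexes and 11 in the interaction, and Lhb, Gnrhr, Nr5a1, Bmp3 and Bmp15 lost their calls.

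Over all genes, males had 23, or 206 with DESeq2, 37 in the fit on all 15 libraries and 11 to 35 without single libraries. Females had 189, or 1431, 714, 123 without the filter and 29 to 244. Females against males in PE+/- had 115, or 900, 421, 66 and 34 to 113, and in PE-/- 9, or 41 with DESeq2 and 7 to 27. The interaction had 31, or 392 and 7 to 71.

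Directions that turned were of values not past the threshold. With Gm49320 added, Tgfbr3l went to -0.066 for sex in PE+/- and 0.077 in the interaction. Library totals gave Tgfbr3l -0.014 for sex in PE-/- and Bambi -0.028 in the interaction, and the block gave Bambi 0.024 for sex in PE-/-. Without single libraries, log2 fold changes ran from -0.14 to 0.33 (Acvr2a) and -0.16 to 0.57 (Bambi) in males. In females they ran from -0.19 to 0.58 (Grem1), -0.40 to 0.10 (Inhbb) and -0.090 to 0.50 (Bambi). For sex in PE+/- they ran from -0.38 to 0.11 (Acvr2a) and -0.56 to 0.18 (Bambi). For sex in PE-/- they ran from -0.083 to 0.11 (Tgfbr3l), -0.35 to 0.41 (Grem1), -0.54 to 0.33 (Inhba), -0.15 to 0.10 (Smad3) and -0.54 to 0.25 (Fshb). In the interaction they ran from -1.60 to 0.0031 (Tgfbr3l) and -0.32 to 0.41 (Bambi). The causes were not tested.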
